A study of Mus musculus with 4 samples.

Results

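The genes of cholesterol and fatty acid synthesis were examined in C2C12 cells, a mouse myoblast line, after the switch from growth to differentiation medium. The list held 34 genes of the mevalonate pathway, sterol synthesis, sterol sensing, sterol transport and fatty acid synthesis. A gene was included where the platform annotation gave its symbol alone to a row of the deposited table, which was met by 32 of the 34, among 14806 genes named in this way. Each of the 32 had a single transcript cluster, the unit of the exon array whose probes are combined into 1 value. Idi1, the isomerase that follows Mvd, was not analysed here. Tm7sf2, a sterol reductase gene, shared its cluster with Vps51 and is given no value.

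Total RNA from C2C12 cells was hybridised to 4 Affymetrix arrays, 2 per condition. The differentiation cells had been moved at full confluence to medium with 2% horse serum and were collected 24 h after induction. Growth cells came from cultures at 60 to 70% confluency in 10% fetal bovine serum. All cells were of the same unmodified line, and both arrays of a condition are described as biological replicates with no account of the cultures, so the p-values measure the spread between these arrays. Differentiation thus cannot be told apart from the lower amount and other source of serum or from the higher cell density. Fewer cells of a kind and less RNA per cell cannot be told apart either.

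Cholesterol is built from acetyl-CoA through mevalonate, isoprenoid diphosphates, squalene and lanosterol. The genes of this route are switched on together by the membrane-bound transcription factors SREBP, which the escort protein Scap carries out of the endoplasmic reticulum when sterols are low and which Insig proteins hold back when sterols are plentiful. SREBP also acts on genes of fatty acid synthesis and desaturation, and muscle cells need both lipids for the membranes of growing and fusing cells.

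SREBP is known to work at promoters together with the factors NF-Y, which binds CCAAT, and Sp1, which binds GC boxes. RefSeq promoter sequences (GRCm38.p6; 250 bases before to 50 after a gene's start) were matched by symbol for 24 of the 32 genes, in 32 windows. Stretches of 30 bases are shown for Hmgcs1, which enters the route, and for 4 of the genes past the threshold below, 5′ to 3′ on the gene's strand. Capitals mark the match: the sterol regulatory element core in Hmgcs1 and, in the others, the CCAAT box (or its reverse complement ATTGG) nearest to the start.
Hmgcs1, chr13:119690204-119690233, plus strand: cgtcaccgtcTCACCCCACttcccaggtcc
Mvd, chr8:122443432-122443461, minus strand: ccggccagcgggCCAATcatatggcagcgc
Cyp51, chr5:4104709-4104738, minus strand: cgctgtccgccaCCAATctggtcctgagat
Hsd17b7, chr1:169969200-169969229, minus strand: ggccgagccttgATTGGtcgaggtgcgcgt
Lbr, chr1:181842412-181842441, minus strand: aaggtcgagggaCCAATggggagctcaggg

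The matches began 137 bases before the start in Hmgcs1, 27 in Mvd, 29 in Cyp51, 12 in Hsd17b7 and 28 in Lbr. CCAAT was found on either strand in 21 of the 32 windows (65.6%), against 37.6% of the 14874 windows of all genes named on the array. The GC box GGGCGG was present in 24 windows (75%), against 52%. The sterol regulatory element core TCACNCCAC was found in Hmgcs1 alone (3.12% of windows, against 1.2%), and the looser TCACNCNAC, which includes it, also in Nsdhl (6.25%, against 2.71%). The E-box CACGTG was found in 6 windows of 5 genes (18.8%, against 8.61%). The windows of the lipid genes had a median GC content of 62.7%, against 58.3% for those of all genes on the array, and its part in these shares was not tested. A match describes the letters only, and no match says only that these letters are not in the window. Lbr, the gene that fell, also held CCAAT.

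The sterol and fatty acid genes lay higher in differentiation by a modest and broadly shared amount. Both differentiation arrays were above both growth arrays for 25 of the 32 genes (78.1%), against 30.8% of all 16658 clusters. For 2 genes, Lbr and Scap, both lay below (6.25%, against 30.1% of all clusters), and for 5 genes the groups overlapped. The groups were thus apart for 27 of 32 genes, against 60.8% of all clusters. The median log2 change, always differentiation minus growth after an offset of 16 was added to the intensities, was 0.45 over the 32 genes and -0.01 over all clusters. Of all clusters, 19.2% had a change of that size or more. Among the 31 genes whose mean intensity was at or above the median of all clusters, 25 had the groups apart in the upward direction (80.6%), against 39.3% of all clusters that bright. With limma's moderated test and Benjamini-Hochberg adjustment over all 16658 clusters, 5 genes rose (15.6%, against 8.64% of all clusters) and 1 fell (3.12%, against 7.52%) at the threshold of 0.05. The share past the threshold in either direction, 18.8%, was near that of all clusters, 16.2%. At an unadjusted p below 0.05 there were 19 genes higher and 1 lower, 20 of 32 in all, against 17.8% of all clusters higher, 15.2% lower and 32.9% in all.

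**Figure D1:**
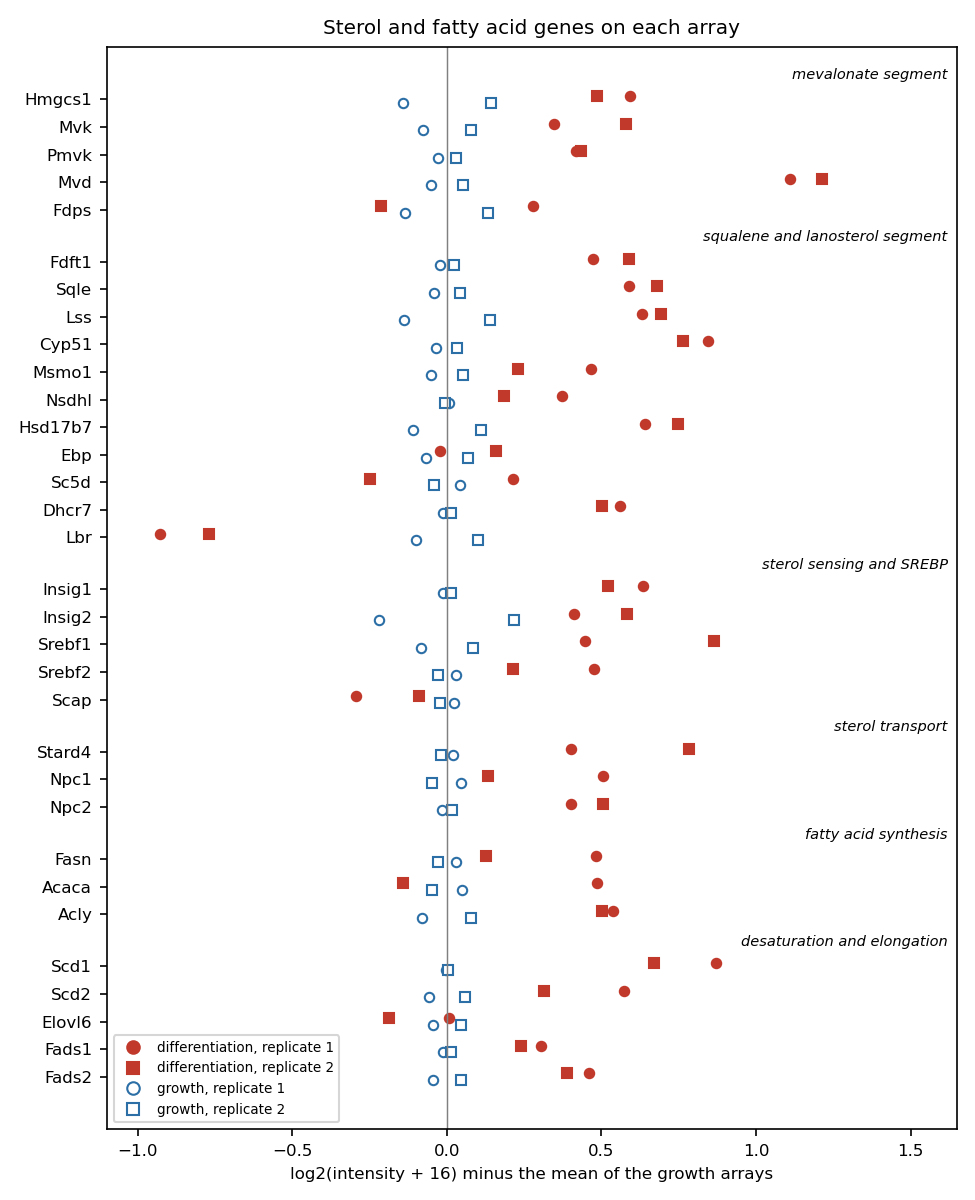
Each row is a gene, grouped by role; the horizontal axis is log2(intensity + 16) on each array minus the mean of the growth arrays. Filled red symbols are the differentiation arrays and open blue symbols the growth arrays (circles replicate 1, squares replicate 2). For 25 of the 32 genes both red symbols lie to the right of both blue ones; Lbr lies farthest to the left.

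**Figure D2:**
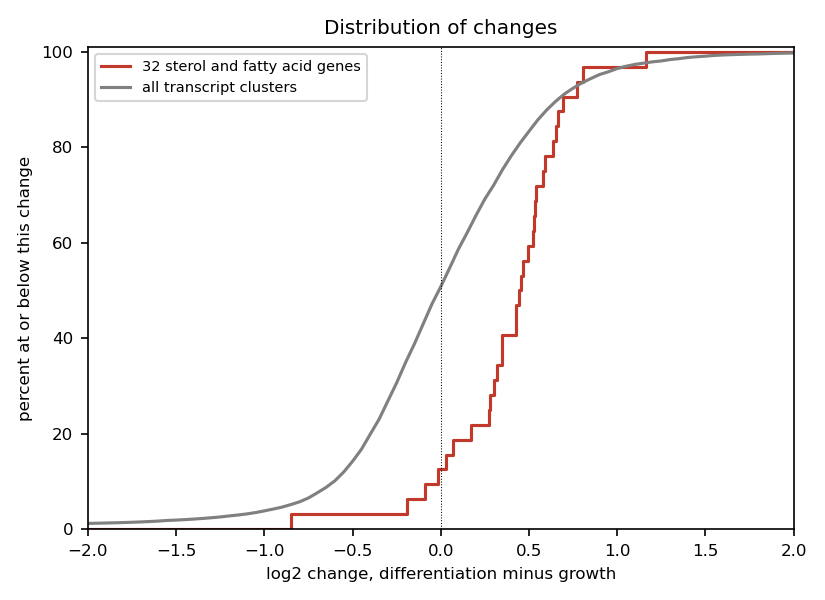
Cumulative percent of the 32 sterol and fatty acid genes (red) and of all 16658 transcript clusters (grey) at or below each log2 change, differentiation minus growth. The red curve lies to the right of the grey one around the medians, 0.45 for the 32 genes and -0.01 for all clusters, and the curves meet again among the largest changes.

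The number of genes past the threshold differed between settings. With a variance prior that follows intensity, 21 of the 32 rose and Lbr fell, against 14.5% and 11.7% of all clusters. When clusters below the median mean intensity were left out, 19 of 31 rose and Lbr fell, against 23.8% and 19.6% of the clusters kept, where the adjustment ran over 8329 clusters. When any 1 array was left out, at most 1 gene passed. That gene was Mvd, which itself did not pass without differentiation replicate 2 (limma adjusted p = 0.0596). With an offset of 1 in place of 16 Mvd passed and the other 5 genes did not. The median change without each array was 0.39 to 0.49.

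The mevalonate segment had 1 risen gene past the threshold of 5 measured (20%, against 8.64% of all clusters), and none fell. Mvd, which encodes the decarboxylase that makes isopentenyl diphosphate, had intensities of 1783 and 1917 on the differentiation arrays and 788.1 and 847.3 on the growth arrays. The groups were far apart, and Mvd had the largest change of the 32 genes, 2.24-fold (log2 change 1.16 ± 0.18 SE; limma adjusted p = 0.00475). Hmgcs1, the synthase that makes HMG-CoA, had 3814 and 3544 in differentiation and 2289 and 2787 in growth. Both differentiation values were above both growth values, and the growth arrays differed from each other. The gene did not pass (log2 change 0.54 ± 0.19 SE; limma adjusted p = 0.0933). Mvk and Pmvk encode the kinases that phosphorylate mevalonate in succession. Mvk had 1255.5 and 1479 in differentiation and 931.5 and 1039 in growth (0.46 ± 0.19; adjusted p = 0.133). Pmvk had 924.2 and 934.9 in differentiation and 673.9 and 701.4 in growth (0.43 ± 0.18; adjusted p = 0.137). The replicates of Pmvk lay close together and the groups did not overlap. Fdps, the farnesyl diphosphate synthase gene, was listed at 65.3 and 41.8 in differentiation and 45.1 and 57.6 in growth. It was below the lower quartile of all clusters on 2 of the 4 arrays, and the files hold no detection call for it.

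Of 11 measured genes of the squalene and lanosterol segment, 3 rose (27.3%, against 8.64% of all clusters) and 1 fell (9.09%, against 7.52%). Sqle encodes squalene epoxidase, a rate-limiting enzyme of the later route. Its intensities were 2189 and 2333 in differentiation and 1408 and 1494.5 in growth (log2 change 0.63 ± 0.18 SE; limma adjusted p = 0.0482). This was just past the threshold, and Sqle did not pass with a robust variance prior (adjusted p = 0.0501). Cyp51, the lanosterol demethylase gene, had 3439 and 3248.5 in differentiation and 1863.5 and 1955 in growth (0.80 ± 0.18; adjusted p = 0.0207). The change in Cyp51 was the next largest rise after that of Mvd. Hsd17b7, which encodes the ketoreductase that helps remove methyl groups from the sterol rings, had 1174 and 1263.5 in differentiation and 690.8 and 807.1 in growth (0.69 ± 0.19; adjusted p = 0.0411).

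The genes around these enzymes lay in the same direction without passing. Fdft1, the squalene synthase gene, had 3452 and 3746 in differentiation and 2446 and 2521 in growth (log2 change 0.53 ± 0.18 SE; limma adjusted p = 0.0808). Lss, which closes the sterol rings to give lanosterol, had 1012 and 1056 in differentiation and 586.3 and 713.8 in growth. The groups did not overlap, and Lss narrowly missed the threshold (0.66 ± 0.19; adjusted p = 0.0505). The call was made after quantile normalization (limma adjusted p = 0.0408) and after median centring. It was not made with an offset of 1 (limma adjusted p = 0.11), a robust variance prior (0.0527) or the replicate block (0.0584). Dhcr7, a reductase gene of the last step, had 797.9 and 766.2 in differentiation and 532.1 and 541.2 in growth (0.53 ± 0.18; adjusted p = 0.0786). Msmo1 and Nsdhl, which act with Hsd17b7 in removing methyl groups, had smaller changes of 0.35 ± 0.19 and 0.28 ± 0.18. For both, differentiation replicate 1 was the higher of the pair, at 4632 against 3935 for Msmo1 and at 3716 against 3267 for Nsdhl.

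Late steps of the route differed among themselves. Ebp, which encodes the sterol isomerase, had 977.6 and 1109 in differentiation and 946 and 1042 in growth, so that the groups overlapped (log2 change 0.07, 95% interval -0.36 to 0.49). Sc5d, the sterol desaturase gene, had 2090 and 1513 in differentiation and 1855.5 and 1749 in growth. The differentiation arrays lay on either side of the growth arrays (-0.02, 95% interval -0.51 to 0.47). Lbr was the gene that fell, to 1379 and 1541 in differentiation, against 2462 and 2829 in growth (-0.85 ± 0.19 SE; limma adjusted p = 0.0204). Its protein, the lamin B receptor, is a sterol reductase that acts after Cyp51 and is also a protein of the inner nuclear membrane that holds lamin and heterochromatin. The groups did not overlap, and the ratio of differentiation to growth was 0.56. Tm7sf2 encodes the other enzyme of that step, and its level alone was not measured. The differences between the changes of Lbr and those of the other enzymes were not tested.

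**Figure D3:**
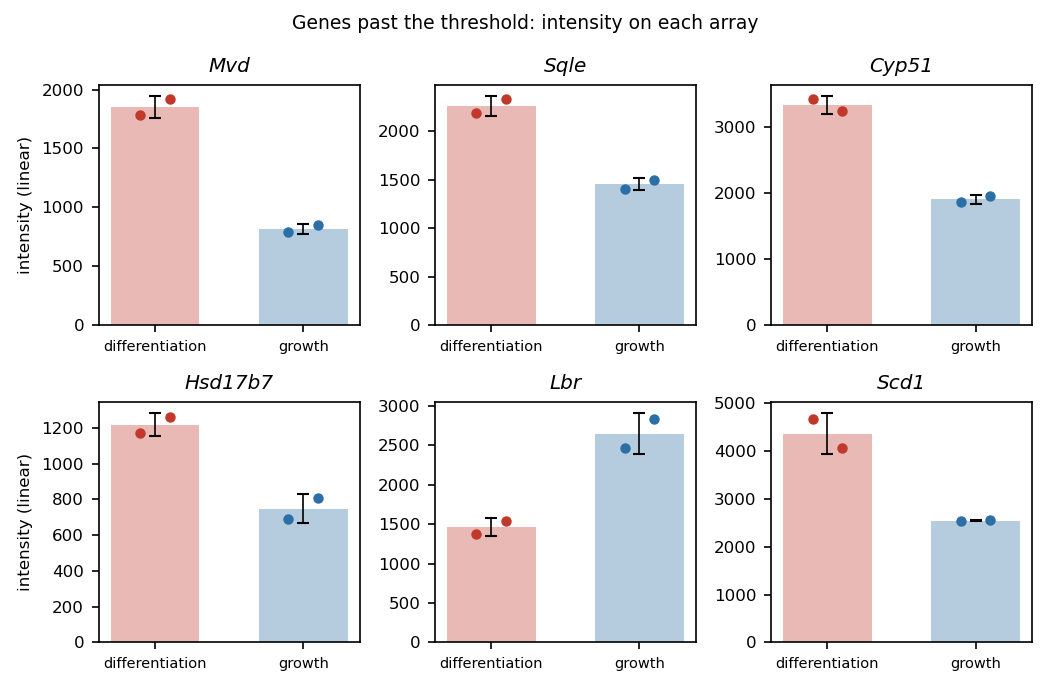
Linear intensity of the 6 genes past the threshold, with the differentiation arrays (red) left of the growth arrays (blue); points are arrays, bars are means and error bars are SD (n = 2 each). Mvd, Sqle, Cyp51, Hsd17b7 and Scd1 are higher in differentiation and Lbr is lower, with no overlap of points in any panel.

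None of the 5 genes of sterol sensing passed the limma test in either direction, while 3 had an unadjusted p below 0.05, all higher (17.8% of all clusters were higher at that level). Insig1, a retention factor for SREBP whose gene is itself a known SREBP target, had 4357 and 4025 in differentiation and 2779 and 2826.5 in growth. The groups were clearly separate (log2 change 0.58 ± 0.18 SE; limma adjusted p = 0.0635). Insig2, its paralog, had 658.4 and 742.9 in differentiation and 419.9 and 573.9 in growth (0.50 ± 0.21; adjusted p = 0.147). Srebf1 encodes the SREBP best known for fatty acid genes and had 876 and 1176 in differentiation and 601.8 and 678.3 in growth (0.65 ± 0.21; adjusted p = 0.0701). Its differentiation arrays differed more from each other than its growth arrays did. Insig1 and Srebf1 passed when the dimmest 20% of clusters were left out. Srebf2, which encodes the SREBP best known for cholesterol genes, had 4172 and 3474 in differentiation and 3057 and 2934 in growth (0.34 ± 0.19; adjusted p = 0.242). Scap, the escort gene, had 667.9 and 771.6 in differentiation and 835.7 and 808.1 in growth (-0.19, 95% interval -0.61 to 0.23). All 5 had groups that did not overlap (60.8% of all clusters), 4 in the upward direction (30.8% of all clusters) and Scap in the downward (30.1%). These values are transcript levels and hold no measure of SREBP cleavage.

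No gene of sterol transport passed the limma test, and 2 of the 3 had an unadjusted p below 0.05, both higher (17.8% of all clusters). Stard4, which encodes a soluble sterol carrier, had 738.9 and 967.7 in differentiation and 563.6 and 548 in growth (log2 change 0.59 ± 0.20 SE; limma adjusted p = 0.0826). Npc1 and Npc2 encode the membrane-bound and the soluble protein that pass cholesterol out of lysosomes. Npc2 had 3783 and 4066 in differentiation and 2828 and 2892 in growth (0.45 ± 0.18; adjusted p = 0.120). Npc1 had 1708 and 1316 in differentiation and 1239 and 1160 in growth (0.32 ± 0.20; adjusted p = 0.301). All 3 had both differentiation arrays above both growth arrays (30.8% of all clusters), though differentiation replicate 2 of Npc1 exceeded the growth arrays by little.

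Among the 3 genes that make palmitate from citrate, none passed the limma test and 1, Acly, had an unadjusted p below 0.05 (17.8% of all clusters were higher at that level). Acly, which splits citrate into acetyl-CoA for both lipid routes, had 2812 and 2746 in differentiation and 1829 and 2043 in growth (log2 change 0.52 ± 0.18 SE; limma adjusted p = 0.0872). Fasn, the fatty acid synthase gene, had 3269 and 2549 in differentiation and 2384 and 2289 in growth (0.30 ± 0.20; adjusted p = 0.316). Acaca, the acetyl-CoA carboxylase gene, had 873.6 and 559.8 in differentiation and 640.8 and 597.7 in growth (0.17, 95% interval -0.38 to 0.72). The differentiation arrays of Acaca lay above and below both growth arrays. For all 3 genes differentiation replicate 1 was the higher, and without it Acaca had a change of -0.14.

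Of the 5 genes of desaturation and elongation, Scd1 rose (20%, against 8.64% of all clusters) and none fell. Scd1 encodes a stearoyl-CoA desaturase, which makes monounsaturated fatty acids, and had 4665 and 4056.5 in differentiation and 2539 and 2551 in growth (log2 change 0.77 ± 0.18 SE; limma adjusted p = 0.0270). The growth arrays were nearly equal and the groups lay well apart. Scd2, a close paralog, had 7121.5 and 5954 in differentiation and 4597 and 4981 in growth (0.44 ± 0.19; adjusted p = 0.148). Scd3, another paralog that is not among the 32, had a change of 0.50 ± 0.18 (adjusted p = 0.0968), and whether probes of these similar genes cross-hybridise was not tested. Fads2 and Fads1, desaturases of polyunsaturated fatty acids, had changes of 0.43 ± 0.18 (adjusted p = 0.141) and 0.27 ± 0.18 (adjusted p = 0.315). Fads2 had 4538 and 4321 in differentiation and 3189.5 and 3401 in growth, and Fads1 had 3354 and 3204 in differentiation and 2691 and 2735 in growth. Neither gene had overlapping groups. Elovl6, which lengthens palmitate, had 1007 and 876.7 in differentiation and 969.9 and 1034 in growth, with overlap (-0.09, 95% interval -0.51 to 0.33).

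**Figure D4:**
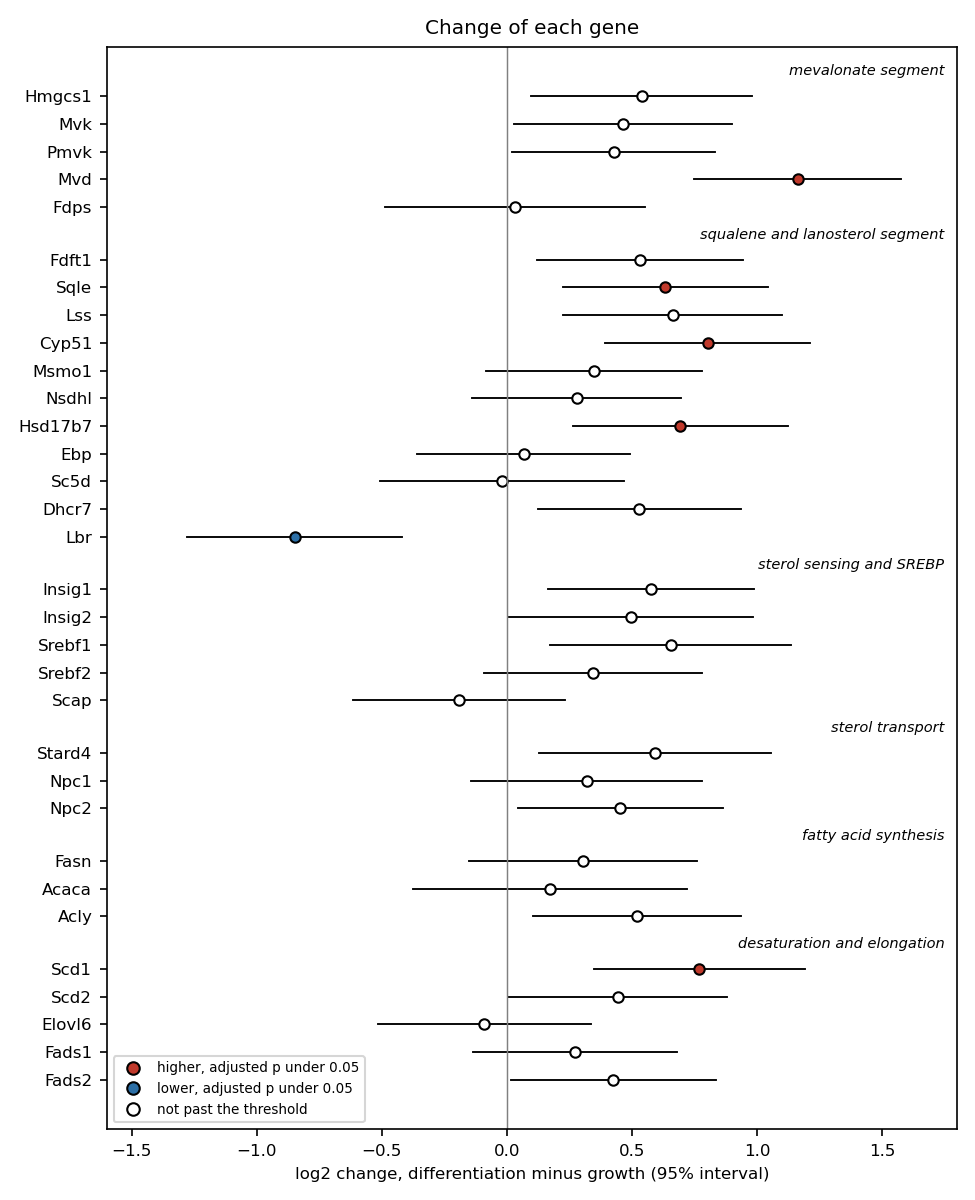
Log2 change, differentiation minus growth, of each of the 32 genes with its 95% interval from limma, grouped by role. Filled red points rose and the filled blue point, Lbr, fell at an adjusted p below 0.05; open points did not pass. Mvd stands farthest to the right at 1.16 and Lbr farthest to the left at -0.85.

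The genes varied between the arrays of a condition. Differentiation replicate 1 was above replicate 2 for 18 of the 32 genes, and growth replicate 1 above replicate 2 for 8 of 32, against 52.4% and 40.1% of all clusters. All 3 palmitate genes and all 5 desaturation and elongation genes were higher in differentiation replicate 1, while this was so for 7 of the 16 measured sterol enzyme genes. Summed over the 5 desaturation and elongation genes, the intensities were 20685 and 18411 in differentiation and 13987 and 14701 in growth. Summed over the 16 sterol enzyme genes, they were 32701 and 31697 in differentiation and 23634 and 25414 in growth.

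Genes of neighbouring lipid routes were read from the same fit. Of 12 measured genes of LXR receptors, sterol efflux and oxysterol enzymes, 5 rose (41.7%, against 8.64% of all clusters) and none fell, with a median log2 change of 0.57. LXR is the nuclear receptor that senses oxysterols when sterols are plentiful and switches on efflux genes. The efflux transporter gene Abca1 had 164.8 and 161.6 in differentiation and 50.4 and 38.9 in growth (log2 change 1.57 ± 0.19 SE; limma adjusted p = 0.00157). Both growth values of Abca1 were below the lower quartile of their arrays (52.6 and 49.6), with no detection call held. Apoe, the apolipoprotein E gene, had 438.4 and 418.3 in differentiation and 123.1 and 156.8 in growth (1.52 ± 0.19; adjusted p = 0.00199). Both passed with any 1 array left out. Abcg1, another efflux transporter gene, rose by 1.04 ± 0.21, Hsd3b7, an enzyme gene of bile acid synthesis, by 0.91 ± 0.21, and Rxra, which encodes a partner receptor of LXR, by 0.64 ± 0.18. Each of these 3 lost its call without differentiation replicate 1, differentiation replicate 2 or growth replicate 1, and Rxra also without growth replicate 2. Nr1h3, the gene of LXR alpha, had 98.9 and 82.2 in differentiation and 80 and 89.4 in growth, with overlap.

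Of 14 measured genes of lipoprotein uptake and sterol transport beyond the 32, 4 rose (28.6%, against 8.64% of all clusters). In this list 1 gene fell (7.14%, against 7.52%), and the median was 0.315. Gramd1b and Gramd1a, which encode carriers of sterol from the plasma membrane to the endoplasmic reticulum, rose by 1.41 ± 0.21 SE (limma adjusted p = 0.00423) and 0.88 ± 0.19 (adjusted p = 0.0204). Mylip, the gene of a ubiquitin ligase that degrades lipoprotein receptors and a known LXR target, had 1806 and 1722 in differentiation and 777.5 and 784.3 in growth (1.16 ± 0.18; adjusted p = 0.00446). Scarb2, a lysosomal membrane protein gene, rose by 0.79 ± 0.18 (adjusted p = 0.0252). Lrp8, a lipoprotein receptor gene, had 220.7 and 221.9 in differentiation and 897.1 and 898.9 in growth (-1.95 ± 0.18; adjusted p = 0.000375). Lrp8 passed with any 1 array left out. Without differentiation replicate 1 none of the 4 risen genes passed, and without differentiation replicate 2 or growth replicate 1 there were 2.

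Other lists moved less or both ways. Of 8 measured genes of SREBP processing and sterol-regulated degradation 1 fell (12.5%, against 7.52% of all clusters) and none rose (median -0.04). It was Erlin1, a gene of the endoplasmic reticulum complex that helps degrade sterol-sensing proteins, with 453.6 and 420.9 in differentiation and 889.9 and 956.8 in growth (log2 change -1.05 ± 0.18 SE; limma adjusted p = 0.00734). It did not pass without either differentiation array. None of 14 genes of isoprenoid use and prenylation passed the limma test (3 had an unadjusted p below 0.05, a share of 21.4%, against 32.9% of all clusters; median 0.08). Neither of the 2 measured genes of a list of other sterol synthesis genes passed or had an unadjusted p below 0.05. Of 26 other genes of fatty acid synthesis, elongation and activation, 2 rose and 3 fell (median -0.06). These shares, 7.69% and 11.5%, were near those of all clusters, 8.64% and 7.52%. The acyl-CoA synthetase genes went opposite ways, Acsl4 rising by 1.01 ± 0.18 and Acsl5 falling (-0.95 ± 0.18). Slc25a1, the mitochondrial citrate carrier that feeds Acly, rose by 0.68 ± 0.18, and the elongase genes Elovl7 (-0.89 ± 0.20) and Elovl4 (-0.68 ± 0.18) fell. All 5 lost their calls without differentiation replicate 1 and without differentiation replicate 2. With a growth array left out, Acsl4 passed both times, Acsl5 without growth replicate 1 and Elovl7 without growth replicate 2. Of 20 genes of glycerolipid synthesis and lipid droplets, 3 rose (15%, against 8.64% of all clusters) and none fell (median 0.195). They were the lipin phosphatase genes Lpin1, with 367.6 and 338.8 in differentiation and 98 and 117 in growth (1.58 ± 0.19; adjusted p = 0.00141), Lpin3 (0.68 ± 0.18) and Lpin2 (0.63 ± 0.18). Lpin1 passed with any 1 array left out, while Lpin2 and Lpin3 lost their calls whichever array was left out. With an offset of 1, the genes of these lists that passed were Abca1, Apoe, Gramd1b, Mylip, Acsl4 and Lpin1, higher, and Lrp8 and Erlin1, lower. Against a minimum change of 1.5-fold they were Abca1, Apoe and Lpin1, higher, and Lrp8, lower. The differences between these lists and the 32 genes were not tested.

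**Figure D5:**
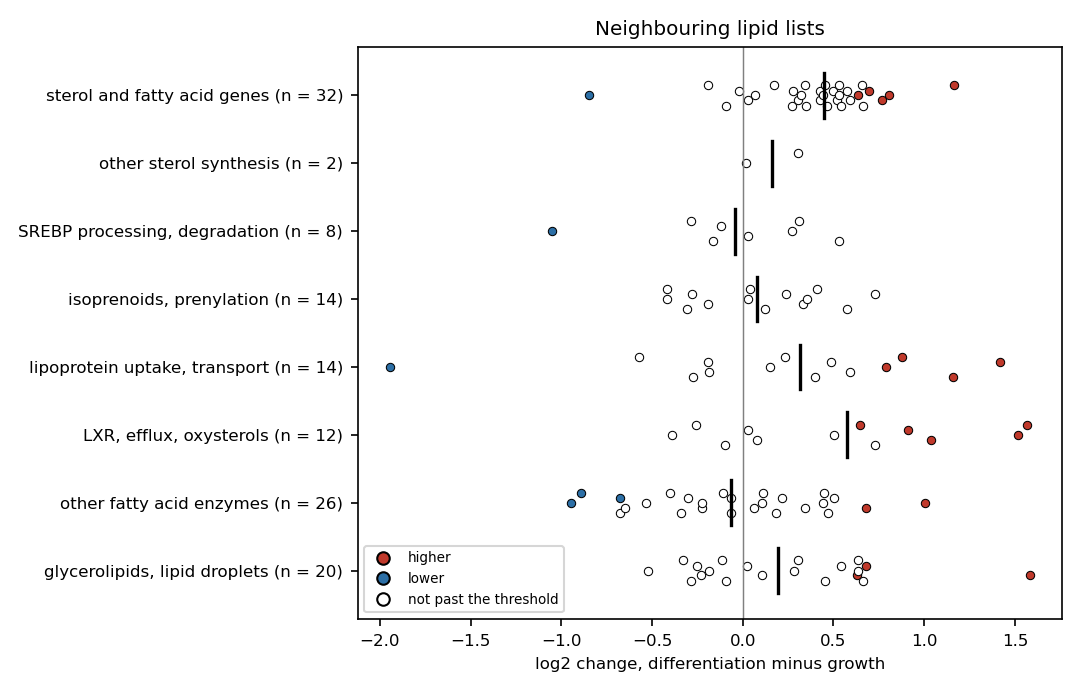
Log2 change, differentiation minus growth, of each measured gene in the 32 sterol and fatty acid genes (top) and in 7 neighbouring lipid lists; the black bar is the median and the number of genes is given at the left. Red points rose, blue points fell and open points did not pass. The top row has its median at 0.45 and holds 5 risen genes of 32 (15.6%) and 1 fallen. The efflux list below it holds 5 risen genes of 12 (41.7%), and 8.64% of all clusters rose.

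Markers of the labelled line and of growth moved with the condition. Of 8 muscle markers 6 rose (75%, against 8.64% of all clusters) and none fell. The 3 measured proliferation markers fell (7.52% of all clusters), Top2a to 274.3 and 292.4 in differentiation, against 1829 and 2273 in growth. Of 5 adipocyte markers, Fabp4 fell (limma adjusted p = 0.0494) and none rose, a share of 20%, against 7.52% of all clusters. The arrays of these markers went both ways. Both differentiation arrays were above both growth arrays for Cidec and Adipoq (40%, against 30.8% of all clusters). For Plin1 and Fabp4 both were below (40%, against 30.1%). The list summed to 393.3 and 337.3 in differentiation and 491.3 and 434.1 in growth. The macrophage list of 5 summed to 259.8 and 257.4 in differentiation and 473.5 and 387.5 in growth. Of these genes 2, Ptprc and Cd68, fell (40%, against 7.52% of all clusters). The 3 hepatocyte markers summed to 141.3 and 230.8 in differentiation and 203.4 and 163 in growth, and the 4 endothelial markers to 230.1 and 269.9 in differentiation and 285.4 and 191.3 in growth. None of these markers was listed at 0 on any array. However, Fabp4, Adipoq, Lep, Ptprc, Itgam and Tek were below the lower quartile of all clusters on every array. With no detection call held, what such dim values show is limited. Their part in the lipid gene results was not tested.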

How the data were processed

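Each of the 4 arrays gave 16658 intensities. The deposited linear intensity per transcript cluster came from PLIER with build mm9, as the submitters' processing notes state. Its version, background correction and normalization are not given in the sources read. Median intensities were 174.1 and 170 in differentiation and 167.8 and 177.2 in growth, no detection call is held, and array number limits precision. Clusters were named from the platform annotation (14938 with 1 symbol, 989 with several, 731 with none listed), and 14883 of the 14938 were matched by Entrez identifier to a RefSeq table, which changed no symbol. Values were transformed as log2(intensity + 16) and tested two-sided in limma 3.58.1 (R 4.3.3; lmFit and eBayes without covariates), with Benjamini-Hochberg adjustment over all clusters. The procedure was tested on simulated data in which 200 brighter clusters were changed. Of the 2-fold changes 12% were called, and of the 4-fold changes 97%. Far more clusters passed in the real data, which eases the adjustment, so these shares may not carry over. A gene that did not pass is thus not shown to be unchanged. The members, the lists, the markers and the tests were chosen with earlier results of these data known. All members are named; genes of other lists are named up to 3 per list and direction by adjusted p, and all where a count was 5 or fewer. Scd3, Nr1h3 and the motifs were chosen after values were seen, and 27 genes of the other lists were not analysed here. Intervals are limma's 95% intervals. Alternatives were 2 normalizations, an offset of 1, 2 filters on dim clusters, 2 variance priors, the replicate number as a block, a test against 1.5-fold, means over clusters and leaving out each array.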

Additional observations from a re-analysis of the deposited data

How the results depend on the processing

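The median log2 change of the 32 genes was 0.386 to 0.486 with an array left out, lowest without growth replicate 1, and 0.45 in each normalization, offset, filter and prior. The number of genes with both differentiation arrays above both growth arrays was 25 after either normalization. With an array left out it was 25 to 28, a comparison of 3 arrays in which the count cannot fall, and the share of all clusters was 38.3% to 42.1%, against 30.8% with all arrays. For the limma threshold, against 5 higher and 1 lower, an offset of 1 gave 1 and 0, a test against 1.5-fold 0 and 0, and leaving out an array 0 to 1 and 0, where the lone array left in its group is taken to vary as the other 2 do. At an unadjusted p below 0.05 an offset of 1 gave 14 higher and 1 lower, with 1 and 0 against 1.5-fold. The shares of all clusters at that level were not taken in these settings, so the counts have no background beside them. Leaving out the dimmest 20% of clusters gave 8 of 32 higher, where 1848 of the 13326 clusters kept rose. Leaving out those below the median gave 19 (23.8% of the clusters kept), and an intensity trend in the prior 21 (14.5% of all clusters). Over all clusters 1439 and 1252 passed in the main analysis, 528 and 622 after adding 1 before the logarithm, 2415 and 1947 with the trend, 204 and 355 against 1.5-fold, and 305 to 1189 and 446 to 839 with an array left out.

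Genes near 0 changed sign with an array left out, none past the threshold. Over the 4 such fits Fdps ranged from -0.215 (without differentiation replicate 1) to 0.278, with -0.102 without growth replicate 1, and Acaca from -0.141 (without differentiation replicate 1) to 0.487. Elovl6 ranged from -0.189 to 0.00834 and Ebp from -0.0218 to 0.158, with the sign turned without differentiation replicate 2, and Sc5d from -0.25 to 0.212, positive without differentiation replicate 2. Without growth replicate 1 Ebp was -0.000476 and Sc5d 0.0234. The cause was not tested. Arrays of the same replicate number did not deviate together (r = -0.037 across clusters), which cannot show whether their cultures were handled as pairs. With the replicate block 4 of the 32 genes rose, Sqle no longer passing, and 1 fell. Of all 16658 clusters 1369 rose and 1195 fell in that setting. Leaving out clusters listed at 0, chosen after seeing the data, added Lss. No detection call is held, so what dim values such as those of Fdps show is limited.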
